A study of Mus musculus with 4 samples.

Results

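The lipid-associated macrophage markers described here are Trem2, Gpnmb, Cd9, Lgals3, Spp1, Itgax, Mmp12, Atp6v0d2, Dcstamp and Plin2. They were chosen by gene symbol and make up 10 of the 45706 genes of the expression table. RNA was taken from gonadal fat (gWAT, a visceral white adipose depot) of 2 mice on a high-fat diet (HFD) with canagliflozin (HFD+Cana) and of 2 mice on the same diet without it (HFD). Canagliflozin, an inhibitor of the glucose transporter SGLT2 of the kidney, was mixed into the food at 0.03% by weight and given for 7 days. Both groups had eaten the high-fat diet for 2 months, so no lean animals enter the comparison. The labels give the strain as C57B6/N and name no genetic modification, age or sex. The methods state that only male mice were analyzed, apart from a premature aging model that is not part of these data. Replicate 1 and replicate 2 of a group stand for different mice, as the methods describe their data, and no sorted cells were measured. In RNA from whole tissue, fewer cells of a type and less RNA per cell cannot be told apart.

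Lipid-associated macrophages gather around dying fat cells in obese adipose tissue, where they form crown-like structures and take up and break down lipid. Trem2, a surface receptor that binds lipids and lipoproteins, is known from mouse studies to be needed for much of this gene program. The other markers describe what such a cell does: it fills with lipid droplets, builds lysosomes, remodels matrix and can fuse with its neighbours. The comparison asks whether short canagliflozin treatment went with a different level of these genes in the obese fat pad, and whether it did so once the overall macrophage level of each mouse was taken into account. That level was represented by Adgre1, which encodes F4/80, a surface protein found on most mouse macrophages.

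The sequence before the RefSeq start is shown for Trem2, the receptor, and for Gpnmb, Spp1 and Mmp12, the 3 markers whose groups did not overlap once divided by Adgre1. RefSeq (GRCm38.p6) holds promoters for 8 of the 10 markers, with 10 starts in all. Capitals mark letters that match a searched motif, on either strand, and each stretch is the last 120 bases before the first listed start, 5′ to 3′ on the + strand. For Mmp12 that start lies inside the gene as GENCODE M21 places it, so 16 of the bases shown are exonic there.
Trem2, chr17:48346281-48346400: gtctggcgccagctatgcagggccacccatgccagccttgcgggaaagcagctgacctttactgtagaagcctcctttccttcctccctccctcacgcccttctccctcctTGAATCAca
Gpnmb, chr6:49036398-49036517: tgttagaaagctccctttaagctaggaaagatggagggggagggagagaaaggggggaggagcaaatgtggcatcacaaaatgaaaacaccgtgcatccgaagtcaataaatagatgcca
Spp1, chr5:104434991-104435110: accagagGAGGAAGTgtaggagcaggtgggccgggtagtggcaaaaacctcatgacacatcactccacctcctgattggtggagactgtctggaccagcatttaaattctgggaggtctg
Mmp12, chr9:7344277-7344396: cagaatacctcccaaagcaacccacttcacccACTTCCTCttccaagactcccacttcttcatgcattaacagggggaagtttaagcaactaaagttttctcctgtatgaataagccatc
The capitals in Trem2 match TGANTCA, a looser pattern that includes TGAGTCA and TGACTCA, the usual AP-1 sites of Jun and Fos proteins. Those in Spp1 and, read on the other strand, in Mmp12 match GAGGAAGT, a site of PU.1, a master factor of macrophages. Over the 250 bases before each start, TGANTCA was found for 3 of the 8 markers (Trem2, Itgax and an inner start of Mmp12), against 6.75% of 32851 promoters of the same length. The letters were TGAATCA in Trem2 and TGAGTCA in Itgax and Mmp12. GAGGAAGT was found for 2, against 2.44%. The shares are per promoter, whereas the 8 markers had 10 starts. TCANGTG, a looser pattern that includes the M-box TCATGTG read by MITF, was found for 2 markers (Lgals3 and the inner start of Mmp12), against 12.2%. The letters were TCAGGTG in Lgals3 and CACATGA, or TCATGTG on the other strand, in Mmp12. Only Mmp12 thus held the M-box itself. CACGTG, the core of the lysosomal gene element read by TFEB, and the direct repeat read by PPAR factors were found for 0 of the 8 markers, against 6.02% and 0.0335%. At such shares, 0 matches in 10 starts say little about the markers. A match describes letters only, and the stretch of Gpnmb shown holds none of these motifs.

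None of the 10 markers passed the test in either direction, and for 6 of the 10 the mice of each group differed from each other by a larger fold than the group means did. Per gene, 4 markers had a log2 fold change above 0 and 6 below 0, and the median was -0.01 against 0.02 over all 13788 genes tested. In limma, with p-values adjusted by Benjamini-Hochberg over all those genes, 6 genes (0.0435%) passed with a higher and 0 with a lower level in HFD+Cana, and the markers' adjusted p ran between 0.317 and 0.995. At an unadjusted p under 0.05, limma found 1 marker higher, Cd9, and 0 lower, against 5.32% of all genes higher and 5.45% lower. For 2 markers, Cd9 and Mmp12, each HFD+Cana mouse was above each HFD mouse, where 24.3% of all genes had such a split. No marker had both HFD+Cana mice below both HFD mice, against 19.8% of all genes. Values are in TPM (the share of transcripts, scaled to 1000000 per sample), fold changes are HFD+Cana over HFD on the log2(TPM + 1) scale, and all 10 markers passed the filter of a mean of at least 1 TPM. Because TPM keeps no read number, the depth is unknown. Precision rests on 2 mice per group and on the variance that limma shares over all genes tested.

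**Figure D1:**
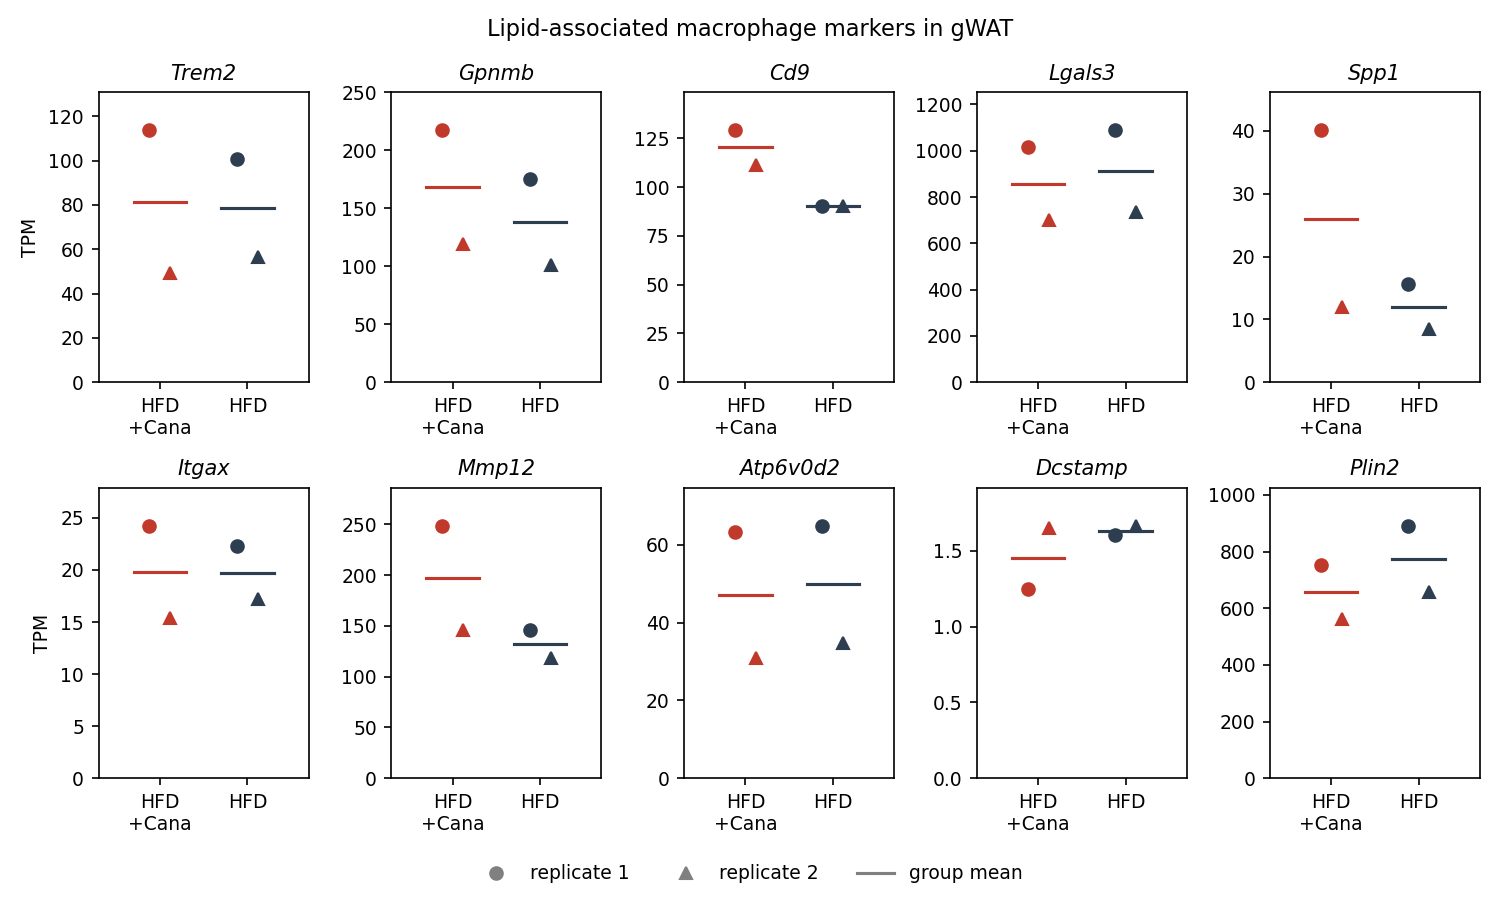
TPM of each of the 10 markers in gWAT on a linear axis, with 1 point per mouse (circle, replicate 1; triangle, replicate 2) and a line at the group mean, HFD+Cana in red and HFD in dark blue. Only for Cd9 and Mmp12 do the groups not overlap, and for Mmp12 the nearest points are 145.9 TPM in HFD+Cana and 145.6 TPM in HFD.

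Trem2 (chr17:48346401-48354147, + strand, GRCm38) is the receptor after which the cell state is often named. It stood at 114 and 49.1 TPM in the 2 HFD+Cana mice, against 101 and 56.5 TPM in the 2 HFD mice. The highest and the lowest value were both HFD+Cana, so the groups overlapped completely. The log2 fold change was -0.01 with a standard error of 0.48 and a 95% interval of -1.28 to 1.26 (limma, adjusted p = 0.995), which leaves more than a doubling in either direction within the interval. Of 14 genes of Trem2 signalling, 12 had replicate 1 above replicate 2 in both groups, as Trem2 did, against 36.4% of all genes. Tyrobp, the adaptor DAP12 that Trem2 needs at the membrane, had 448 and 237 TPM in HFD+Cana, against 418 and 300.2 TPM in HFD. Syk, the kinase recruited by that adaptor, had 49.1 and 31.5 TPM in HFD+Cana, against 46.7 and 35.3 TPM in HFD. Of the 14 genes, 0 passed in limma, also at an unadjusted p under 0.05, and their median log2 fold change was -0.02. Vav2 and Hcst had the smallest p among them, with 14.8 and 15.6 TPM in HFD+Cana, against 15.9 and 19.5 TPM in HFD, for the signalling protein Vav2, and 6.60 and 3.70 TPM in HFD+Cana, against 3.29 and 4.34 TPM in HFD, for the adaptor Hcst.

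Gpnmb, Cd9 and Lgals3 are the surface and lysosomal proteins most used to pick out these cells. Gpnmb (chr6:49036546-49070929, + strand), a transmembrane glycoprotein that reaches the lysosome and a known target of the MITF family, had 218 and 119 TPM in HFD+Cana, against 176 and 101 TPM in HFD. Its groups overlapped, with a log2 fold change of 0.27 (SE 0.39, 95% interval -0.76 to 1.30; limma, adjusted p = 0.834). Cd9 (chr6:125460266-125494791, - strand), a tetraspanin that organises membrane proteins and is carried on many cell types, had 129 and 111 TPM in HFD+Cana, against 90.5 and 90.2 TPM in HFD. It was the tightest of the 10 within groups, and both HFD+Cana mice lay above both HFD mice, 1.33-fold by the group means. Its log2 fold change of 0.41 (SE 0.10, 95% interval 0.14 to 0.67) had an unadjusted p of 0.0121 and did not pass over all genes (limma, adjusted p = 0.317). Lgals3 (chr14:47367751-47386160, + strand), which encodes galectin-3, a lectin that binds galactosides and damaged lysosomes, was the most abundant marker at 1014 and 702 TPM in HFD+Cana, against 1090 and 735 TPM in HFD. The order within each group was the same, and the log2 fold change was -0.09 (SE 0.27, 95% interval -0.80 to 0.63; limma, adjusted p = 0.931). A long antisense transcript, Gm28809, overlaps Cd9 on the opposite strand and averaged 0.278 TPM. No source used here says whether counting used strand, and without it the reads of both could not be told apart.

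Cd9 is made by other cells of the fat pad too, and their markers were read beside it. All 13 mesothelial markers (genes of the cell layer that covers the depot, such as Krt19 and Wt1) had both HFD+Cana mice above both HFD mice. Each was higher at an unadjusted p under 0.05 in limma, against 5.32% of all genes, and none passed at an adjusted p under 0.05. Summed, the 13 had 226 and 381 TPM in HFD+Cana, against 79.3 and 62.9 TPM in HFD. No mesothelial marker was at 0 TPM in all mice. Of 8 markers of fibroblasts and their progenitors, 4 had the same split (24.3% of all genes did) and 7 a log2 fold change above 0. In limma 4 were higher at an unadjusted p under 0.05, against 5.32% of all genes, and 0 passed after adjustment. The sums of the 8 were 3244 and 2445 TPM in HFD+Cana, against 2298 and 2266 TPM in HFD. Of the HFD+Cana mice, replicate 1 had more Cd9 and the higher fibroblast sum, and replicate 2 the higher mesothelial sum. Per gene, the median log2 difference of replicate 1 minus replicate 2 in HFD+Cana was 0.07 for the fibroblast markers. For the mesothelial markers it was -0.70. Of 8 endothelial markers, 4 had both HFD+Cana mice below both HFD mice and 0 the opposite split. Their median log2 fold change was -0.22. Of 10 adipocyte markers, 4 were apart downwards and 1 upwards, with a median log2 fold change of -0.11. Over all genes, 19.8% had the downward split and 24.3% the upward one. The part of these cells in the Cd9 values was not tested.

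Spp1 and Mmp12 encode secreted proteins and had the widest differences. Spp1 (chr5:104435118-104441050, + strand), which encodes osteopontin, a phosphoprotein that binds integrins and CD44, had 40.2 and 11.9 TPM in HFD+Cana, against 15.6 and 8.42 TPM in HFD. The group means stood 2.17-fold apart, but that rested on 1 mouse: HFD+Cana replicate 1 was highest, and HFD+Cana replicate 2 was below HFD replicate 1. The log2 fold change was 0.88 (SE 0.62, 95% interval -0.74 to 2.51; limma, adjusted p = 0.648). Without HFD+Cana replicate 1 it was 0.05. Mmp12 (chr9:7344381-7369499, + strand), the macrophage elastase, had 249 and 146 TPM in HFD+Cana, against 146 and 119 TPM in HFD. Its groups did not overlap, though they all but touched, and the log2 fold change was 0.53 (SE 0.28, 95% interval -0.20 to 1.26; limma, adjusted p = 0.555). Leaving out HFD+Cana replicate 1 brought it to 0.15.

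Partners and receptors of these secreted proteins and of other markers gave no called difference. Cd44, a receptor of osteopontin and hyaluronan, had 49.4 and 25.4 TPM in HFD+Cana, against 37.4 and 26.3 TPM in HFD, and Itgav, the integrin alpha V chain, had 16.0 and 13.8 TPM in HFD+Cana, against 14.1 and 12.3 TPM in HFD. Timp1, an inhibitor of matrix metalloproteinases, had 100.4 and 16.7 TPM in HFD+Cana, against 35.2 and 18.9 TPM in HFD. Like Spp1 it was highest in HFD+Cana replicate 1 by a wide margin, and the other 3 mice lay far lower. Eln, which encodes elastin, the protein that Mmp12 cleaves, had 164 and 109 TPM in HFD+Cana, against 104 and 116 TPM in HFD. Of 21 partner and receptor genes, 0 passed in limma, and their median log2 fold change was 0.08. At an unadjusted p under 0.05, 1 was higher and 1 lower, against 5.32% and 5.45% of all genes. These were Cd82, a tetraspanin, with 31.5 and 35.2 TPM in HFD+Cana, against 27.4 and 28.2 TPM in HFD, and Lgals3bp, a secreted ligand of galectin-3, with 345 and 342 TPM in HFD+Cana, against 523 and 465 TPM in HFD. Lgals3bp had a log2 fold change of -0.52 with a standard error of 0.10 (limma, adjusted p = 0.262).

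Osteopontin is also abundant in bone and in kidney and other epithelia. The 8 markers of those sources (Bglap, Ibsp, Sp7, Dmp1, Umod, Slc34a1, Epcam and Cdh1) summed to 0.380 and 0.651 TPM in HFD+Cana, against 0.284 and 0.254 TPM in HFD, all were under the filter, and Ibsp, Umod and Slc34a1 were at 0 TPM in all 4 mice. Genes typical of liver and blood were also measured. Of 10 hepatocyte markers, 9 had both HFD+Cana mice above both HFD mice, against 24.3% of all genes. In limma 4 were higher at an adjusted p under 0.05, against 0.0435% of all genes. The 10 summed to 1698 and 2663 TPM in HFD+Cana, against 783 and 1622 TPM in HFD. Red blood cell genes summed to 14391 and 6673 TPM in HFD+Cana, against 1756 and 5940 TPM in HFD. Whether these transcripts came from the fat itself, and their part in the marker values, was not tested.

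Itgax is the surface marker of the inflammatory macrophage of fat, and Plin2 is the marker of its lipid load. Itgax (chr7:128129547-128150657, + strand), which encodes CD11c, the integrin chain that also marks dendritic cells, had 24.2 and 15.4 TPM in HFD+Cana, against 22.3 and 17.2 TPM in HFD. The HFD mice lay inside the range of the HFD+Cana mice, with a log2 fold change of -0.02 (SE 0.25, 95% interval -0.68 to 0.64; limma, adjusted p = 0.986). Its partner chain Itgb2 had the same order, at 99.2 and 63.3 TPM in HFD+Cana, against 91.0 and 67.9 TPM in HFD. Of 11 dendritic cell markers, 9 passed the filter, and 0 of those passed in limma, also at an unadjusted p under 0.05. Summed, the 11 markers had 240.3 and 179 TPM in HFD+Cana, against 254 and 209 TPM in HFD, and their part in the Itgax values was not tested.

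Plin2 (chr4:86648386-86670060, - strand), the coat protein of lipid droplets in most cells other than mature fat cells, had 751 and 562 TPM in HFD+Cana, against 891 and 658 TPM in HFD. The groups overlapped, at a log2 fold change of -0.24 (SE 0.22, 95% interval -0.81 to 0.34; limma, adjusted p = 0.732). Of the 5 perilipins, 0 passed in limma, and their median log2 fold change was also -0.24. At an unadjusted p under 0.05, 1 was lower, against 5.45% of all genes. That gene was Plin1, the coat of the large droplet of fat cells, with 546 and 563 TPM in HFD+Cana, against 691 and 713 TPM in HFD, a log2 fold change of -0.34 with a standard error of 0.09 (limma, adjusted p = 0.336). Plin1 was nearly the same in both mice of a group, unlike Plin2. Plin5, a perilipin of oxidative tissue, had 4.63 and 10.2 TPM in HFD+Cana, against 10.6 and 12.04 TPM in HFD. Plin3 and Plin4 overlapped between the groups, with log2 fold changes of -0.04 and -0.10.

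Atp6v0d2 and Dcstamp link the program to fusion and to the lysosomal proton pump. Atp6v0d2 (chr4:19876841-19922605, - strand), the d2 subunit of the V-ATPase that osteoclasts and macrophages use, had 63.3 and 30.8 TPM in HFD+Cana, against 64.9 and 34.8 TPM in HFD. Replicate 1 was about as far above replicate 2 in both groups, 2.06-fold in HFD+Cana and 1.86-fold in HFD, and the log2 fold change was -0.10 (SE 0.45, 95% interval -1.28 to 1.07; limma, adjusted p = 0.950). Atp6v0d1, the widely expressed counterpart of that subunit, behaved otherwise, with 136 and 138 TPM in HFD+Cana, against 160 and 153 TPM in HFD. It had both HFD+Cana mice below both HFD mice at a log2 fold change of -0.19 (SE 0.08; limma, adjusted p = 0.478). Of 17 V-ATPase genes, 6 had that split and 1 the opposite one, against 19.8% and 24.3% of all genes. In limma 0 passed, and 1 was lower at an unadjusted p under 0.05, where 5.45% of all genes were. It was Atp6v1e1 with 223 and 236 TPM in HFD+Cana, against 283 and 268 TPM in HFD.

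Dcstamp (chr15:39745930-39760938, + strand), the membrane protein needed for fusion of osteoclasts and giant cells, was the one marker near the filter. It had 1.25 and 1.65 TPM in HFD+Cana, against 1.60 and 1.66 TPM in HFD, and was the only marker in which replicate 1 was not above replicate 2 in both groups. The log2 fold change was -0.11 (SE 0.19, 95% interval -0.60 to 0.38; limma, adjusted p = 0.863). Its relative Ocstamp did not pass the filter and had 0.236 and 0.324 TPM in HFD+Cana, against 0.404 and 0.388 TPM in HFD. Acp5, the tartrate-resistant acid phosphatase, had 388 and 501 TPM in HFD+Cana, against 489 and 494 TPM in HFD, and Ctsk, cathepsin K, had 83.3 and 57.5 TPM in HFD+Cana, against 86.9 and 58.3 TPM in HFD. Of 16 genes of fusion and osteoclasts, 13 passed the filter, and 0 of them passed in limma, also at an unadjusted p under 0.05.

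The 4 MiT/TFE factors, which drive lysosomal genes and Gpnmb, all had overlapping groups and no call in limma, also at an unadjusted p under 0.05. Mitf had 11.3 and 10.2 TPM in HFD+Cana, against 10.5 and 10.2 TPM in HFD. Tfeb had 16.9 and 18.4 TPM in HFD+Cana, against 16.8 and 17.8 TPM in HFD, and Tfe3 had 34.6 and 31.7 TPM in HFD+Cana, against 35.0 and 29.6 TPM in HFD. Tfec, the member most restricted to myeloid cells, had 2.61 and 1.08 TPM in HFD+Cana, against 1.35 and 1.65 TPM in HFD. Among 25 further genes of the lipid-associated program, 8 had both HFD+Cana mice below both HFD mice and 3 the opposite split. Over all genes these shares were 19.8% and 24.3%. In limma 0 passed at an adjusted p under 0.05. At an unadjusted p under 0.05, 3 of the 25 were lower and 0 higher, against 5.45% and 5.32% of all genes. The 2 of smallest p were Npc2, which moves cholesterol out of lysosomes, with 535 and 526 TPM in HFD+Cana, against 739 and 662 TPM in HFD, and Cstb, an inhibitor of cathepsins, with 313 and 279 TPM in HFD+Cana, against 450 and 354 TPM in HFD (limma, adjusted p = 0.328 and 0.441).

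Lipid-handling genes of that list that fat cells also express were read apart from the markers. Lpl, lipoprotein lipase, had 3544 and 4318 TPM in HFD+Cana, against 5510 and 4957 TPM in HFD, and Fabp5, a fatty acid carrier, had 566 and 468 TPM in HFD+Cana, against 683 and 639 TPM in HFD. Both had the HFD+Cana mice below the HFD mice, and neither passed (limma, adjusted p = 0.484 and 0.449). Lipa, the acid lipase of the lysosome, had 151 and 103 TPM in HFD+Cana, against 164 and 124 TPM in HFD. Cd36, a fatty acid receptor, had 3419 and 4092 TPM in HFD+Cana, against 4242 and 4376 TPM in HFD, and Apoe, an apolipoprotein, had 7758 and 7268 TPM in HFD+Cana, against 7053 and 6259 TPM in HFD. Cd36 was thus apart in one direction and Apoe in the other, without a call for either. Fabp4, the adipocyte fatty acid carrier, and Cd63, a lysosomal tetraspanin, overlapped between the groups with log2 fold changes of 0.07 and 0.06.

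The differences between mice of a group had a common shape. Replicate 1 was above replicate 2 in both groups for 9 of the 10 markers, against 36.4% of all genes tested, and for 18 of 19 general macrophage genes. Between the mice of a group, the fold of replicate 1 over replicate 2 ran between 0.754 (Dcstamp) and 3.36 (Spp1) in HFD+Cana and between 0.962 (Dcstamp) and 1.86 (Atp6v0d2) in HFD. Summed, the 10 markers reached 2604 and 1749 TPM in HFD+Cana, against 2598 and 1822 TPM in HFD, so a mouse of each group had nearly the same high total and a mouse of each group nearly the same low total. Lgals3 and Plin2 made up 67.8% and 72.3% of that sum in HFD+Cana, against 76.3% and 76.5% in HFD. Adgre1 itself had 96.6 and 48.3 TPM in HFD+Cana, against 95.7 and 59.7 TPM in HFD. Cd68, a lysosomal protein of macrophages, had 374 and 203 TPM in HFD+Cana, against 367 and 234 TPM in HFD, and Csf1r, the receptor for macrophage growth factors, had 151 and 95.5 TPM in HFD+Cana, against 134 and 107 TPM in HFD. None of the 3 passed in limma, and the 19 general macrophage genes had a median log2 fold change of 0.00174 with 0 genes at an unadjusted p under 0.05.

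**Figure D2:**
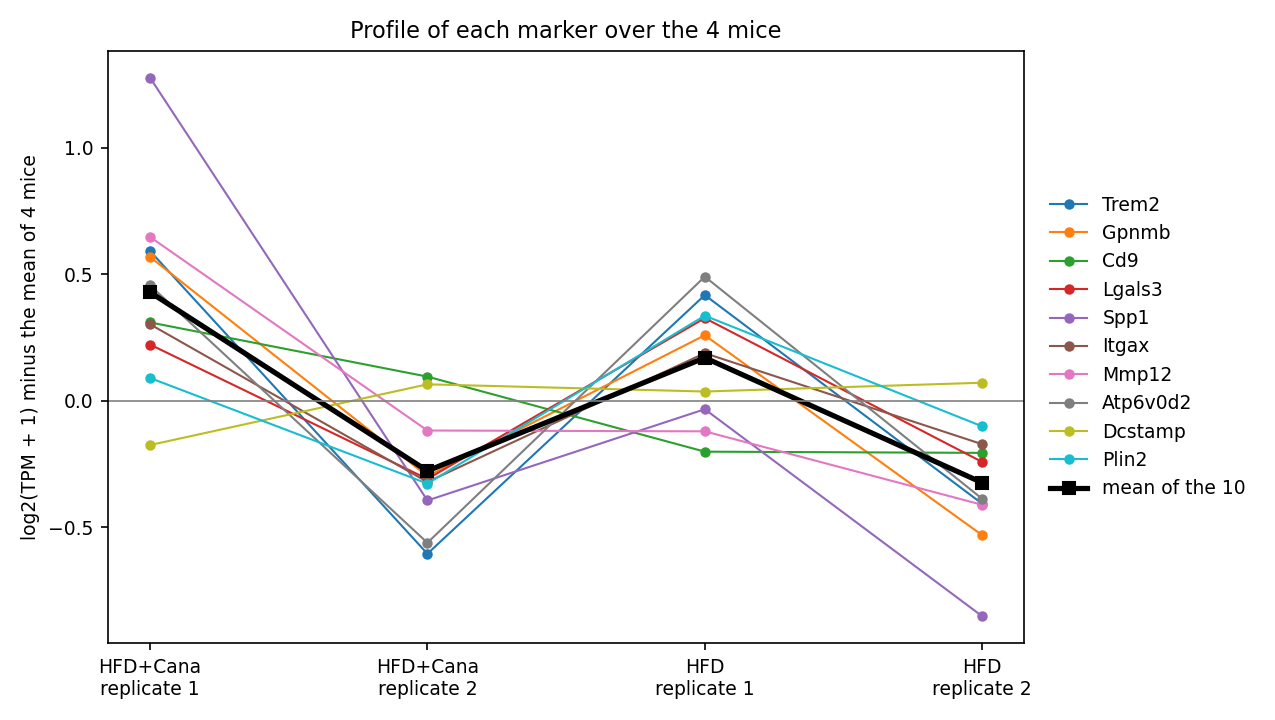
Profile of each marker over the 4 mice, as log2(TPM + 1) minus its mean over the mice, with the mean of the 10 in black. Most lines are high in replicate 1 and low in replicate 2 of both groups, and Spp1, Dcstamp and Cd9 lie farthest from the mean of the 10, at root mean square log2 differences of 0.51, 0.40 and 0.28.

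Measured against the mean profile of the 10 markers, Itgax was the closest, with a root mean square log2 difference of 0.10 over the 4 mice, and Spp1 the farthest at 0.51. Gpnmb and Lgals3 followed Itgax at 0.13 and 0.14, and Dcstamp (0.40) and Cd9 (0.28) were next to Spp1 at the far end. Among 10615 other genes that averaged 5 TPM or more, the 5 most like that mean profile were Rnaseh2a, Fcgr3, Rgs1, Mrc1 and Anpep, with root mean square differences between 0.00810 and 0.0285. Fcgr3, an Fc receptor of macrophages, had 192 and 116 TPM in HFD+Cana, against 159 and 111 TPM in HFD. Mrc1, the mannose receptor CD206, had 88.9 and 55.0 TPM in HFD+Cana, against 76.1 and 55.2 TPM in HFD. Csf1r ranked 90, Cd68 ranked 246 and Adgre1 ranked 608. With 4 mice such a ranking is a description only.

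Divided by Adgre1 of the same mouse, 3 markers had both HFD+Cana mice above both HFD mice: Gpnmb, Spp1 and Mmp12, whose promoters are printed with that of Trem2. Over all genes divided in the same way, 4.97% had that split and 1.53% the opposite one, which no marker had. Gpnmb per Adgre1 was 2.25 and 2.46 in HFD+Cana, against 1.83 and 1.69 in HFD, or 2.36 ± 0.147 and 1.76 ± 0.0990 (SD, n = 2 each), a 1.34-fold difference of the means. Mmp12 per Adgre1 was 2.57 and 3.02 in HFD+Cana, against 1.52 and 1.99 in HFD, 1.59-fold. Spp1 per Adgre1 was 0.416 and 0.247 in HFD+Cana, against 0.163 and 0.141 in HFD, 2.18-fold. For Gpnmb the ratio brought the mice of a group together, while its TPM had overlapped. For Spp1 the HFD+Cana mice stayed well apart from each other.

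The remaining 7 markers overlapped as ratios. Trem2 per Adgre1 was 1.18 and 1.02 in HFD+Cana, against 1.05 and 0.946 in HFD, and Atp6v0d2 per Adgre1 was 0.656 and 0.637 in HFD+Cana, against 0.678 and 0.584 in HFD. These were nearly flat over the 4 mice, with log2 differences of 0.13 and 0.04. Cd9 per Adgre1, at 1.34 and 2.30 in HFD+Cana, against 0.946 and 1.51 in HFD, no longer had separate groups, since its TPM did not follow Adgre1 between the mice. Lgals3 per Adgre1 was 10.5 and 14.5 in HFD+Cana, against 11.4 and 12.3 in HFD, and Plin2 per Adgre1 was 7.78 and 11.6 in HFD+Cana, against 9.31 and 11.0 in HFD. In both, the HFD mice lay between the HFD+Cana mice. Itgax and Dcstamp had log2 ratio differences of 0.13 and -0.04.

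**Figure D3:**
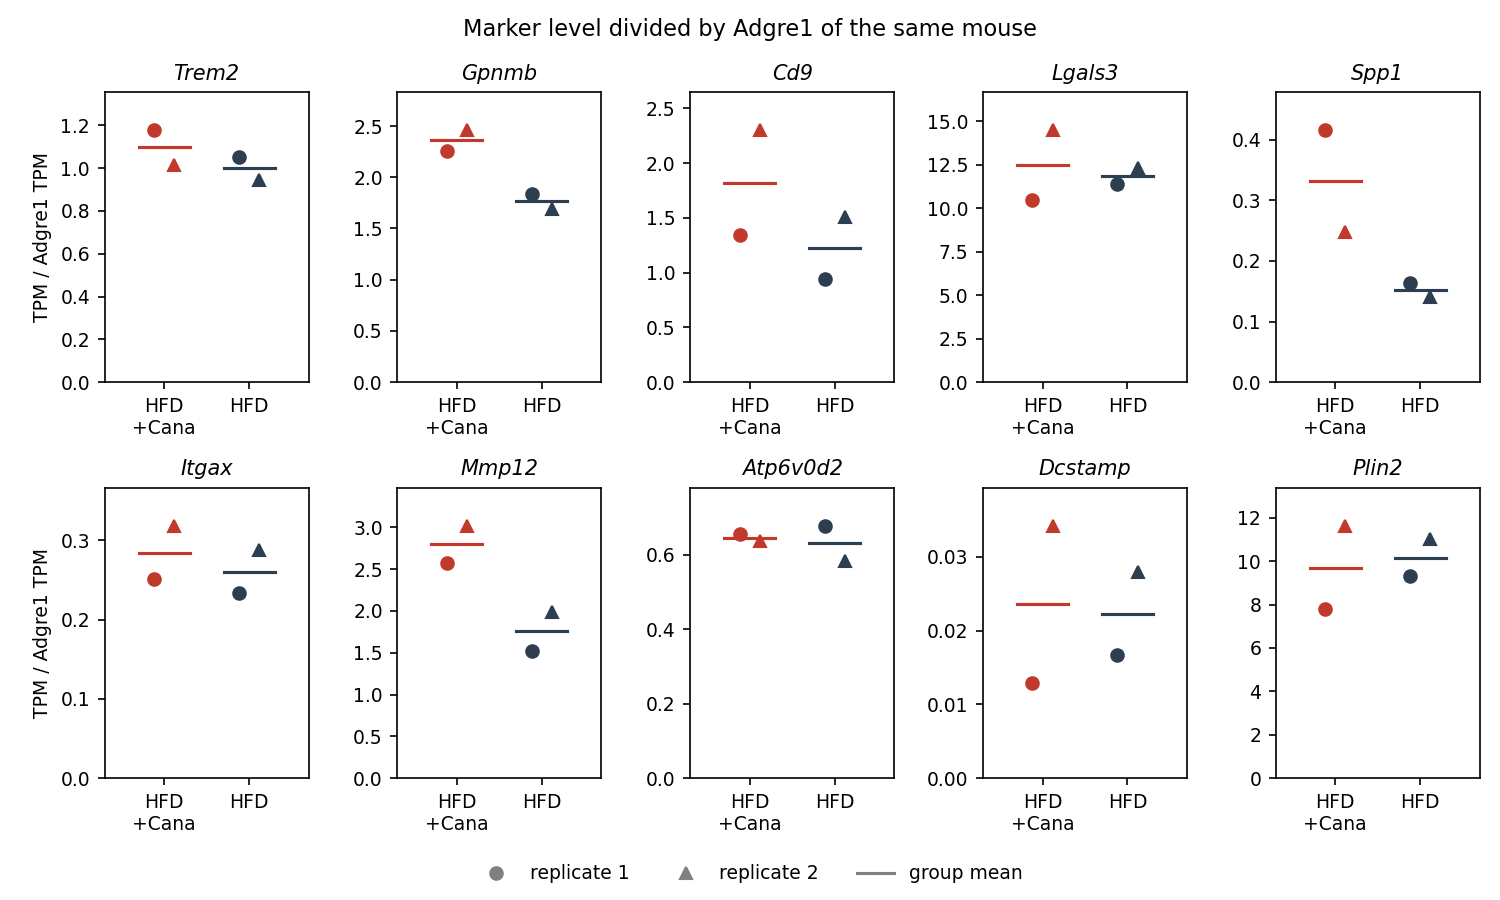
Each marker divided by Adgre1 of the same mouse, a ratio without unit on a linear axis, with 1 point per mouse and a line at the group mean, HFD+Cana in red and HFD in dark blue. Gpnmb, Spp1 and Mmp12 have both HFD+Cana points above both HFD points, and the other 7 markers overlap.

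The ratio narrowed the spread within groups for 7 of the 10 markers, and the median within-group SD on the log2 scale was 0.23 for ratios and 0.40 for TPM. Log2 ratio differences, computed with no pseudocount, were above 0 for 8 markers with a median of 0.13. Adgre1 itself differed by -0.15 on that scale, and dividing by it moved the median of all genes to 0.16 in limma, where the median of the markers was 0.13. Whether the markers' median (no pseudocount) or that of all genes (limma on TPM + 1) was higher turned with the mouse left out. The markers stood at 0.18 and all genes at -0.16 without HFD replicate 1. Without HFD+Cana replicate 1, the markers stood at 0.39 and all genes at 0.63. In limma on ratios of TPM + 1, 0 markers passed, and 0 reached an unadjusted p under 0.05, against 0.087% of all genes higher and 0.00725% lower at an adjusted p under 0.05 and 0.798% higher and 0.109% lower at an unadjusted one. The adjusted p was 0.9999 or above for each marker, with standard errors between 0.743 and 0.767, near the median of 0.75 over all genes. These errors hardly varied, although the within-group SD of the log2 ratio was 0.086 for Gpnmb and 0.79 for Dcstamp. The spread of Adgre1 enters every ratio, and limma drew each gene's variance almost wholly to the trend over all genes. The p-values thus do not measure a marker's own spread. For a marker that follows Adgre1 between mice, this fit is too coarse to decide. For Dcstamp the sign depended on the pseudocount, at 0.03 in limma. The smallest two-sided p that an exact permutation test allows with 2 values a group is 0.3333, and Gpnmb, Spp1 and Mmp12 had it.

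The choice of macrophage gene mattered for Gpnmb and Cd9. Per Cd68, and per the geometric mean of the general macrophage genes, the same 3 markers were apart, against 4.9% and 4.82% of all genes. Per Csf1r, Spp1, Mmp12 and Cd9 were apart upwards, against 6.4% of all genes, Gpnmb overlapped, and Plin2 was apart downwards with a log2 difference of -0.24. Spp1 had log2 ratio differences between 0.93 and 1.08 and Mmp12 between 0.53 and 0.68 over the 4 denominators, and Gpnmb between 0.27 and 0.42. Of 18 general macrophage genes other than Adgre1, 6 were apart upwards and 1 downwards per Adgre1, against 4.97% and 1.53% of all genes. Of 12 markers of resident macrophages 4 were apart upwards, so such a split was not particular to the 10 markers.

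**Figure D4:**
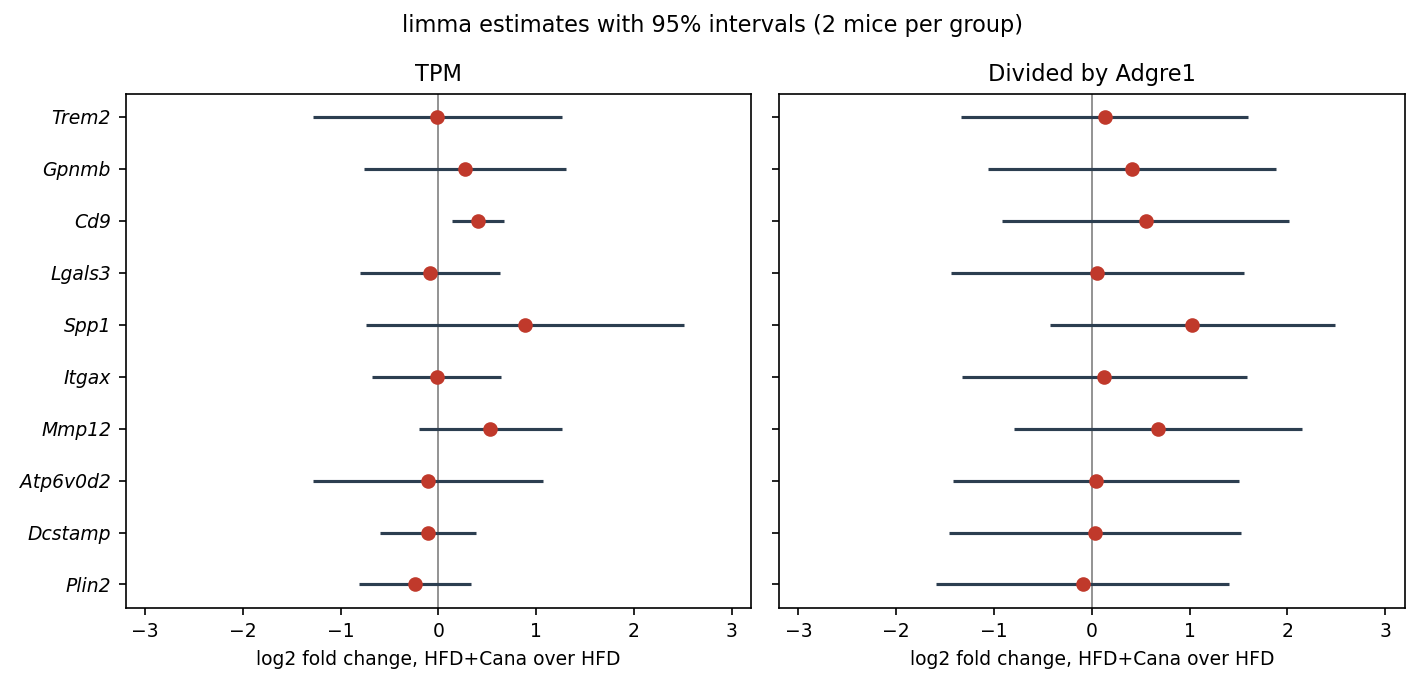
limma log2 fold changes of HFD+Cana over HFD for each marker (points) with 95% intervals (lines), on TPM at left and divided by Adgre1 at right, with 2 mice per group. On TPM the interval of Cd9 alone lies above 0, before adjustment over genes, and every interval of the ratios includes 0. The ratio intervals are of nearly the same width for all markers, whatever a marker's own spread within groups.

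Markers of other macrophages and myeloid cells were read beside these values. Of 12 resident macrophage markers, 5 had both HFD+Cana mice above both HFD mice, against 24.3% of all genes, and 0 passed in limma. Their median log2 fold change was 0.23, with sums of 1229 and 860.1 TPM in HFD+Cana, against 1002 and 842 TPM in HFD. Cd163, a scavenger receptor for haemoglobin, had 68.8 and 58.1 TPM in HFD+Cana, against 50.0 and 42.8 TPM in HFD (limma, adjusted p = 0.376), and Lyve1, a hyaluronan receptor, had 66.6 and 40.9 TPM in HFD+Cana, against 35.7 and 30.7 TPM in HFD (limma, adjusted p = 0.467). Cd163 was the only resident marker at an unadjusted p under 0.05, where 5.32% of all genes were higher. Of 12 monocyte and neutrophil markers, 9 passed the filter, with a median log2 fold change of -0.23, 4 of them above 0, and 0 passing in limma. Per Adgre1, 3 of them were apart upwards and 3 downwards, against 4.97% and 1.53% of all genes. The 2 with an unadjusted p under 0.05 were both lower, as were 5.45% of all genes. They were Chil3, a chitinase-like protein, with 3.72 and 3.37 TPM in HFD+Cana, against 8.72 and 8.63 TPM in HFD (limma, adjusted p = 0.143), and S100a8, a calcium-binding protein of neutrophils, with 13.7 and 22.5 TPM in HFD+Cana, against 117 and 53.7 TPM in HFD (limma, adjusted p = 0.268). The part of these cells in the marker values was not tested.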

How the data were processed

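RNA of whole gWAT from 2 HFD+Cana and 2 HFD mice was prepared with a stranded mRNA kit and sequenced as paired reads of 150 bases. Reads were run by the authors through nf-core/rnaseq with default settings, and Salmon gene estimates were deposited as TPM, that is, reads per effective transcript length, made to sum to 1000000 in each sample. Because of this scaling, a gene's TPM also depends on all other genes of the sample. Build GRCm38 (mm10) and R 4.3.2 appear in the submitters' processing notes, and the annotation release was not stated in the sources used. Groups came from the sample labels, and 0 other sample columns were present. Nothing in the labels says that replicate numbers pair mice across groups.

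Gene positions came from GENCODE M21 (45143 of 45706 gene IDs found), and 27 gene names that had become dates were restored by ID. The 13788 genes averaging 1 TPM or more were fitted as log2(TPM + 1) with limma 3.58.1 in R 4.3.3 (eBayes with trend, group as the only term), with Benjamini-Hochberg adjustment over all genes and a threshold of 0.05. This fit on TPM was tested on simulated data. The same fit was run on ratios to Adgre1 (13787 genes), for which no data were simulated. Count models were not used on TPM. The 10 markers, the 21 other gene lists and the rule for named genes (all markers, a set of genes chosen by role, the 2 genes of smallest p of a list described, and the 5 most alike in pattern) were chosen with earlier results of these data known. Alternatives were pseudocounts of 0.1 and 5, no filter, a filter of 5 TPM, quantile and median-of-ratios scaling, TPM without mitochondrial genes, eBayes without trend or robust, a replicate block, other denominators and leaving out each mouse. Tables (pandas 2.3.3), exact tests (scipy 1.17.1) and plots (matplotlib 3.10.9) were made in Python 3.11.15.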

Additional observations from a re-analysis of the deposited data

How the results depend on the processing

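No marker was called on TPM under any alternative, with a lowest adjusted p of 0.218 (limma). With the replicate number as a block, 1 marker passed as a ratio to Adgre1, Spp1 (log2 1.03, adjusted p = 0.000451), in a fit that called 414 genes in place of 13, while on TPM the block called 0 markers and 2 genes in place of 6. Same-numbered mice of the groups deviated together only weakly (r = 0.18 across 13788 genes), and the labels give them no more than a shared number. Calls over all genes ran between 0 and 13 on TPM, with 0 under pseudocount 0.1, no filter, a filter of 5 TPM and quantile normalization, 2 under pseudocount 5 and 13 without trend, and between 0 and 44 as ratios outside the block, with 0 under pseudocount 5, 44 under pseudocount 0.1 and 32 without trend.

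Signs near 0 turned with scaling. On TPM this held for Trem2 under quantile normalization (0.023) and for Csf1r (-0.013) and Itgb2 (-0.00325) under median-of-ratios scaling. In limma on ratios to Cd68, Csf1r and the macrophage mean it held for Lgals3 (-0.000352, -0.087, -0.080), Atp6v0d2 (-0.019, -0.11, -0.10) and Dcstamp (-0.023, -0.11, -0.10), to Csf1r and the mean for Trem2 (-0.013, -0.00578) and Itgax (-0.019, -0.012), and for Dcstamp also under pseudocount 0.1 (-0.028) and quantile normalization (-0.085).

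Leaving out 1 mouse at a time called 0 markers on TPM and 0 as ratios. With 2 mice against 1, 5 to 7 markers were apart, where 68.2% to 74.4% of all genes were. The markers' median log2 fold change ran between -0.25 and 0.46, the highest without HFD+Cana replicate 2, and their median log2 ratio between 0.11 and 0.39, the highest without HFD+Cana replicate 1 (0.30 without HFD replicate 2). Under the same omissions the median of all genes as ratios in limma ran between -0.31 (without HFD+Cana replicate 2) and 0.63 (without HFD+Cana replicate 1). Ranges on TPM were -0.61 to 0.59 for Trem2, -0.16 to 0.70 for Gpnmb, 0.30 to 0.51 for Cd9, -0.37 to 0.20 for Lgals3, 0.05 to 1.72 for Spp1, -0.33 to 0.29 for Itgax, 0.15 to 0.91 for Mmp12, -0.61 to 0.40 for Atp6v0d2, -0.23 to 0.011 for Dcstamp and -0.45 to -0.02 for Plin2. As ratios they were 0.36 to 0.47 for Gpnmb, 0.68 to 1.37 for Spp1, 0.48 to 0.86 for Mmp12, 0.16 to 0.93 for Cd9 and 0.03 to 0.24 for Trem2, and crossed 0 for Lgals3 (-0.17 to 0.28), Itgax (-0.055 to 0.31), Atp6v0d2 (-0.064 to 0.14), Dcstamp (-0.58 to 0.65) and Plin2 (-0.38 to 0.19). Signs also turned for genes named by role, with ranges of -0.63 to 0.35 for Adgre1, -0.52 to 0.35 for Cd68, -0.33 to 0.33 for Csf1r, -0.57 to 0.34 for Tyrobp, -0.36 to 0.27 for Syk, -0.34 to 0.028 for Acp5, -0.32 to 0.24 for Ctsk, -0.29 to 0.64 for Cd44, -0.31 to 0.33 for Itgb2, -0.60 to 1.91 for Timp1, -0.0060 to 0.58 for Eln, -0.091 to 0.013 for Plin3, -0.31 to 0.10 for Plin4, -0.47 to 0.076 for Lipa, -0.060 to 0.20 for Fabp4, -0.12 to 0.23 for Cd63, -0.010 to 0.12 for Mitf, -0.26 to 0.53 for Tfec, -0.033 to 0.082 for Tfeb and -0.075 to 0.16 for Tfe3. With 2 mice per group and no read depth, a marker without a call may still differ.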
